A study of Mus musculus with 4 samples.

Results

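The antiviral interferon-stimulated genes described here are 46 named mouse genes, among them the Ifit, Oas, Mx, Isg and Slfn families and related effectors. They were chosen by symbol, matched to NCBI gene identifiers, out of 15935 genes listed in at least 1 library. All 46 were listed in all 4 libraries, the lowest at 77 counts, and all 46 passed the filter of 1 FPKM (fragments per kilobase of gene length, scaled to library depth). The cells were bone marrow-derived macrophages of adult C57BL/6 mice, grown for 5 days with M-CSF. The 4 groups were KO LPS, WT LPS, KO NT and WT NT. KO cells (labelled EZH2-/-) were from ezh2f/f lysmcre animals, in which the lysozyme M promoter drives Cre against floxed Ezh2, WT cells from wild-type mice, LPS cells were stimulated for 2 h with lipopolysaccharide, and NT cells were not treated. Ezh2 is the main methyltransferase of Polycomb repressive complex 2. Such Cre acts in myeloid cells as they mature, and the Ezh2 allele is deleted only where it has acted. Each group had 1 library, so no difference below was checked against replicates and no test was possible. The labels do not say how many animals or cultures a library holds.

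Total expected counts ran from 5237782 in KO LPS to 5678451 in WT NT. Ezh2 stood at 1.29 FPKM in KO LPS and 2.52 in WT LPS, and at 2.06 in KO NT and 2.84 in WT NT, from 18, 38, 31 and 43 counts, lower in KO each time but few counts. All 8 macrophage markers examined were detected in every library, with a summed level of 3539 (KO LPS), 3543 (WT LPS), 3359 (KO NT) and 3151 (WT NT) FPKM. All 9 markers of neutrophils and their precursors were also detected, and their sum was higher in KO: 562 FPKM in KO LPS against 411 in WT LPS, and 644 in KO NT against 378 in WT NT. Fibroblast markers summed to 2.37 (KO LPS), 6.16 (WT LPS), 3.56 (KO NT) and 6.42 (WT NT) FPKM. The sums for T, B, NK and plasmacytoid dendritic cell markers did not exceed 2.31 FPKM in any library, and Cd3e, Cd3g and Ncr1 were not listed in any library. In such bulk samples fewer cells of a type and less RNA per cell cannot be told apart.

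Interferon-stimulated genes are the effector arm of the type I interferon response. Toll-like receptor 4, the LPS receptor, signals through TRIF and the factor IRF3 to switch on the gene for interferon beta, and IRF3 also acts directly on some antiviral genes. Secreted interferon binds its receptor, and signalling through the kinases JAK1 and TYK2 leads to a factor with IRF9 as its DNA-binding part, which binds the interferon-stimulated response element (ISRE) in promoters. The products bind or cut viral RNA, deplete nucleotides, trap virions or modify signalling proteins.

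Promoter sequences are shown for 3 members because they carry the letters that such factors are known to read. They are the 250 bases before the annotated RefSeq start (GRCm38.p6), 5′ to 3′ on the gene's strand, with matches to the ISRE core (GAAA, any 2 bases, then GAAA), searched on both strands, in capitals. Isg15 lies on the minus strand (chr4:156200819-156201068), Ifit1 on the plus strand (chr19:34640639-34640888) and Rsad2 on the minus strand (chr12:26456453-26456702).
Isg15: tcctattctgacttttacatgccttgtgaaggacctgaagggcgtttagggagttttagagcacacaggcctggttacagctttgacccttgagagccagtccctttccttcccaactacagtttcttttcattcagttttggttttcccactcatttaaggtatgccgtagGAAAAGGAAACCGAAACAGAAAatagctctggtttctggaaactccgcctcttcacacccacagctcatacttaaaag
Ifit1: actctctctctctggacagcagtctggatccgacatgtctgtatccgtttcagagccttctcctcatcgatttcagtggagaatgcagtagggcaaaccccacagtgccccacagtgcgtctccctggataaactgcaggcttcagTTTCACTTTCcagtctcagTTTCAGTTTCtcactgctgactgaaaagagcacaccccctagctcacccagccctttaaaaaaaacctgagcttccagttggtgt
Rsad2: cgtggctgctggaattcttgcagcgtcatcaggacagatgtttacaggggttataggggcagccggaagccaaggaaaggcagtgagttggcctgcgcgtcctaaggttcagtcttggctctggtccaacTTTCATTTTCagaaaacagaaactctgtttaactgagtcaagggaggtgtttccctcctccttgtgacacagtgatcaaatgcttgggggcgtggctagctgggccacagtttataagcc
Isg15 held 3 overlapping core matches in a row. In Ifit1 there were 2 separate matches and in Rsad2 1, all of these on the opposite strand, where the core reads TTTC, any 2 bases, then TTTC.

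RefSeq windows of 300 bases (250 before and 50 after the start) were given for 37 of the 46 members, in 47 windows. The other members are Mx1, Mx2, Oas1b, Oas2, Usp18, Rtp4, Parp9, Parp14 and Tor3a. The ISRE core was in 21 of these 47 windows (44.7%) and in 3.44% of all 32851 windows. By gene, 18 of 37 members (48.6%) and 3.99% of all 27025 genes had a match in at least 1 window. The NF-kB-like pattern (GGGA, any 2 bases, then TTCC), searched on both strands, was in 3 of 47 member windows (6.38%) and 1.47% of all windows. Of the 33 ISRE core matches, counted per member window, 0 overlapped an NF-kB-like match. The Slfn8 site lies in 2 overlapping windows and is counted in both. A match describes letters and is not a measured binding site.

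Some further ISRE core matches are shown with 7 bases on each side, read on the strand where the core reads GAAA, to set neighbouring copies and unlike LPS responses beside each other.
Ifit3, minus strand, chr19:34583407-34583416: gaaagtaGAAACTGAAAcagactt
Ifit3b, minus strand, chr19:34607803-34607812: gaaagtaGAAACTGAAAcagactt
Oas1a, minus strand, chr5:120907530-120907539: ggaaatgGAAACTGAAAatctact
Oas1g, minus strand, chr5:120887616-120887625: ggaaatgGAAACTGAAAatctact
Slfn8, plus strand, chr11:83020849-83020858: ttttgggGAAAACGAAActgctca
Bst2, minus strand, chr8:71537587-71537596: ggaaaatGAAACTGAAAggctgca
Oas3, minus strand, chr5:120777725-120777734: gggaggaGAAAACGAAAgtgaagg
The coordinates are those of the core. The Ifit3 and Ifit3b stretches were identical, as were those of Oas1a and Oas1g. Among the 18 members with a core match, the log2 fold of LPS over NT in WT ranged from -0.26 to 3.97 with a median of 0.65, and among the 19 with a window and no match from -0.26 to 2.79 with a median of 0.54. The ranges overlapped almost entirely, so in these windows the core did not separate members by their LPS response.

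**Figure D1:**
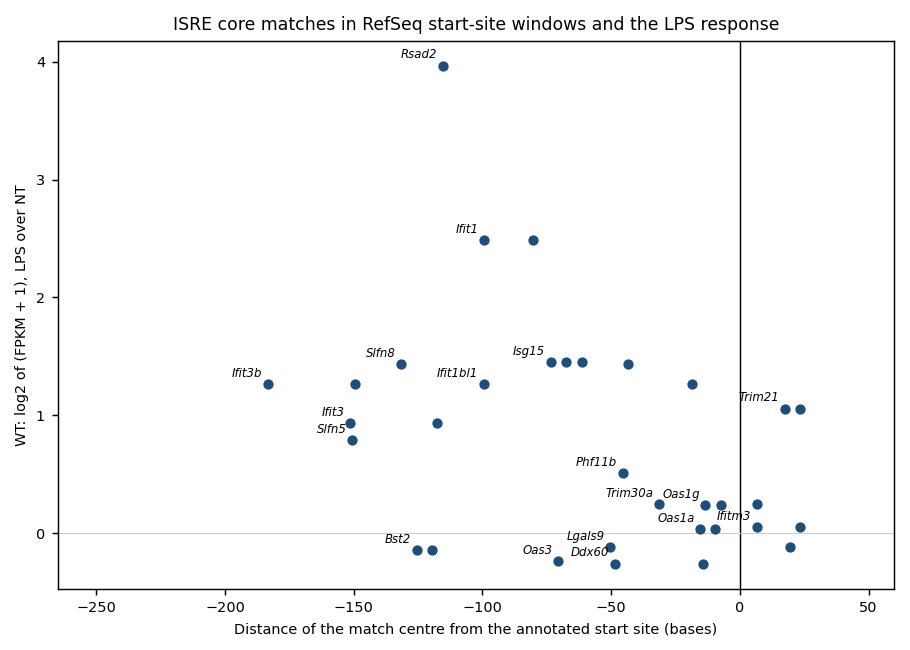
Each point is 1 ISRE core match in a RefSeq window of a member, placed by its distance from the annotated start site in bases (horizontal) and by the log2 of (FPKM + 1), LPS over NT, of its gene in WT (vertical). The Slfn8 site, which lies in 2 windows, is drawn for both. Matches lie at all heights, with Rsad2 at 3.97 and Bst2, Oas3 and Ddx60 below 0.

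Before any LPS the median level of the 46 genes was 52.8 FPKM in KO NT and 74.4 in WT NT, against medians of 6.71 and 6.62 over all genes listed in those libraries. With LPS the members' median was 87.2 FPKM in KO and 115.5 in WT. They took 1.98% of all counts in KO LPS and 3.15% in WT LPS, against 1.17% in KO NT and 1.48% in WT NT. Ifitm3, which encodes a membrane protein that blocks virus entry, had the highest level among the members in KO LPS, KO NT and WT NT and was second to Rsad2 in WT LPS. As deposited, WT LPS held the highest of the 4 values for 35 members, while KO NT held the lowest for 31 and KO LPS for 13. The same shares over all genes are not given here, and the order of LPS and NT libraries depends on the scaling. In KO, 14 members (76.6% of all genes) were lower with LPS as deposited. With libraries rescaled by their median ratio 2 members (52.3%) were.

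**Figure D2:**
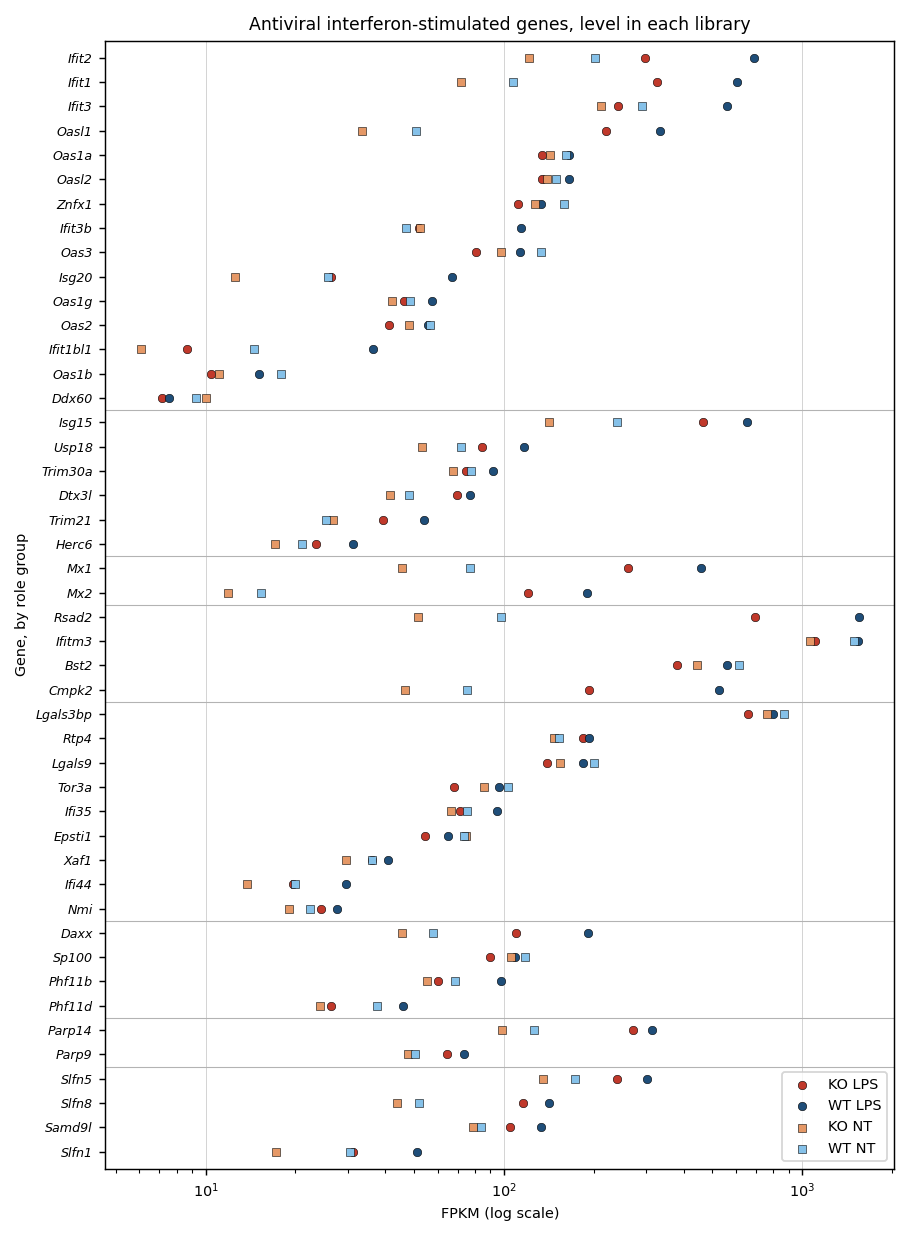
Level of each of the 46 genes in the 4 libraries, as FPKM on a log axis, with genes grouped by role between the grey lines and ordered by their WT LPS level. Red circles (KO LPS) lie left of dark blue circles (WT LPS) for all 46 genes, and Rsad2 and Mx2 show the widest gaps between LPS and NT in both genotypes.

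The comparison of KO with WT asks how these genes differ with the ezh2f/f lysmcre genotype. In its libraries Ezh2 RNA was still detected, and it was lower on few counts, with no interval given. With LPS, all 46 members were lower in KO LPS than in WT LPS, where 37.7% of all 10375 genes were below 0. Their median log2 fold was -0.45, or 0.73 times the WT level, and that of all genes was 0.08. Folds are taken as log2 of (FPKM + 1) over (FPKM + 1), which shrinks those of low genes. Of the members, 7 were at least 2-fold lower (1.12% of all genes, and 0.308% of the 6159 genes of at least 77 counts in all 4 libraries, the lowest count of a member), 15 were at least 1.5-fold lower (3.35% of all genes) and none was as much higher, which 5.69% of all genes were at 1.5-fold. The exact 95% interval of the count ratio lay below 1 for 43 members, against 9.45% of all genes, and above 1 for none, against 21.0%. Among those 6159 genes the interval lay below 1 for 12.1%. Only counting error enters these intervals, and variation between animals or cultures is not in them.

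Without LPS the difference had the same direction and was smaller for most members. Of the 46, 42 had a lower level in KO NT than WT NT cells (46.2% of all 10990 genes were below 0), with a median log2 fold of -0.33, or 0.80 times the WT level, against 0.02 for all genes. At least 2-fold lower was 1 member, Ifit1bl1 (0.883% of all genes), and 11 were at least 1.5-fold lower (3.06%). The interval of the ratio lay below 1 for 38 (11.4% of all genes, and 15.7% of those of at least 77 counts) and above 1 for none (14.1%). Ifit3b, Ddx60, Trim21 and Epsti1 were the 4 above 0, and the intervals of all 4 included 1. In both states 42 members were below WT, which 22.8% of all genes were. Across the 46 genes the folds of KO over WT with and without LPS, which come from 4 different libraries, correlated at 0.70 by Pearson and 0.70 by Spearman, as a description over genes of the same libraries. Neutrophil markers were higher in KO in both states, as given above, and their part in these differences was not tested.

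**Figure D3:**
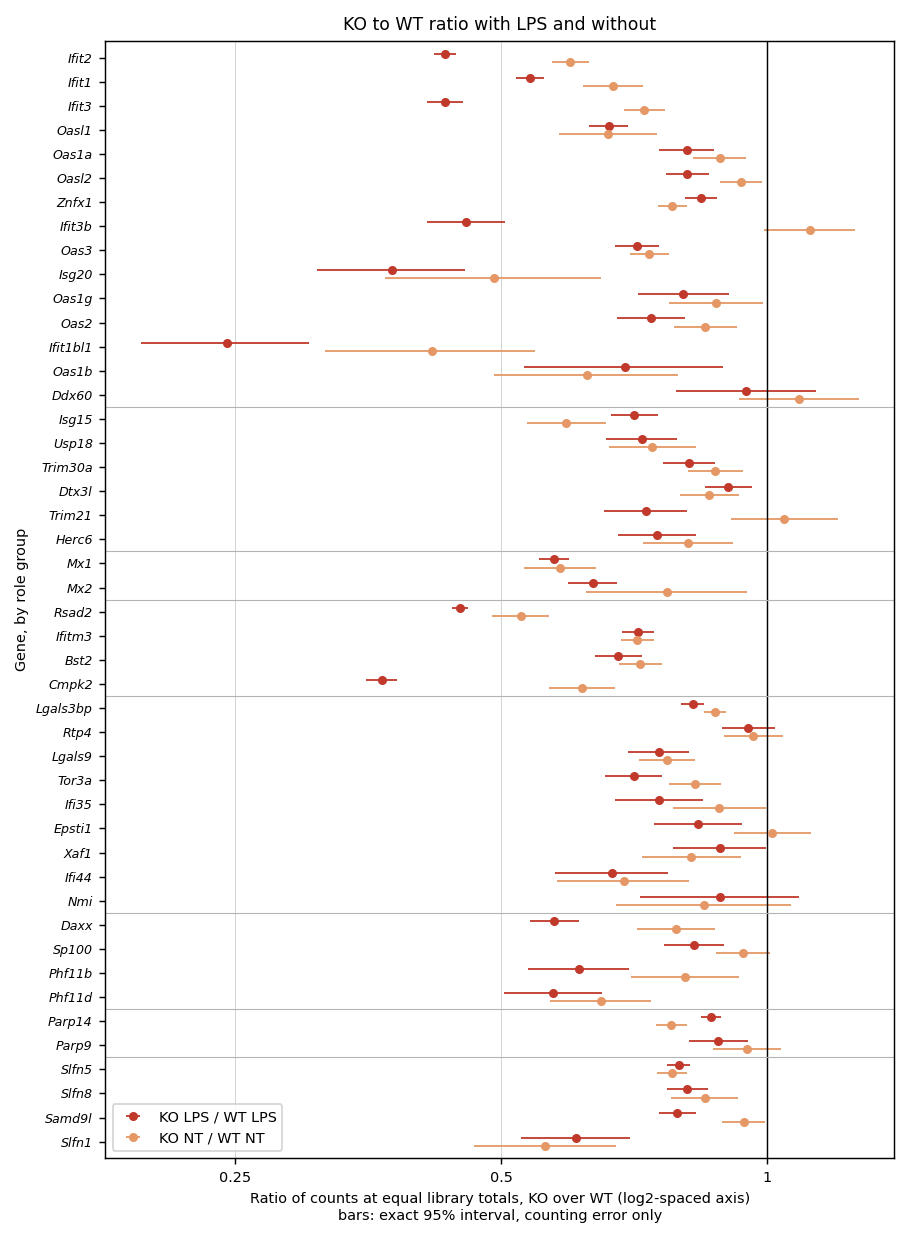
Ratio of counts, KO over WT at equal library totals, for each gene with LPS (red) and without (orange), on a log2-spaced axis, with bars for the exact 95% interval of counting error. All 46 red points lie left of 1, from 0.244 for Ifit1bl1 to 0.953 for Rtp4, while 4 orange points lie right of it.

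The comparison of LPS with NT asks which of the genes had responded by 2 h. In KO, 12 of 46 members were at least 2-fold higher with LPS (6.61% of all 11069 genes), at a median log2 fold of 0.33 against -0.42 for all genes. In WT, 15 of 46 were at least 2-fold higher (6.41% of all 10972 genes), at a median of 0.54 against -0.46 for all genes. None was at least 1.5-fold lower in either genotype, which 37.3% of all genes were in KO and 40.6% in WT. The median of all genes thus lay well below 0, a shift that rescaling the libraries by their median ratio removes. Relative to it the members' medians were 0.75 higher in KO and 1.0 higher in WT. As deposited, 14 members in KO (76.6% of all genes) and 11 in WT (78.3%) had folds below 0. With median-ratio scaling 2 in KO (52.3%) and 0 in WT (52.2%) had, and 16 in KO (9.76%) and 23 in WT (9.62%) were at least 2-fold higher. Whether genes such as Oas2, Oas3, Bst2 and Znfx1 were lower or higher with LPS therefore flips with the scaling.

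Rsad2, Mx2, Oasl1, Cmpk2, Mx1 and Ifit1 had the highest LPS folds in WT. The 12 members past 2-fold in KO were all among the 15 in WT, and 5.08% of all genes were past 2-fold in both. The other 3, past 2-fold in WT alone, were Ifit3b, Ifit1bl1 and Trim21. Whether this reflects a difference between the genotypes could not be tested with 1 library each. Log2 folds of LPS over NT were larger in WT than in KO for 36 of the 46 genes (42.0% of all genes), and the median difference, KO minus WT, was -0.12, against 0.05 for all genes. Ifit3b (-1.27), Ifit1bl1 (-0.82), Cmpk2 (-0.76) and Ifit3 (-0.75) had responses at least 1.5-fold smaller in KO (4 of 46, against 4.31% of all 11320 genes and 0.861% of those of at least 77 counts). The largest difference in the other direction was 0.25, for Isg15.

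**Figure D4:**
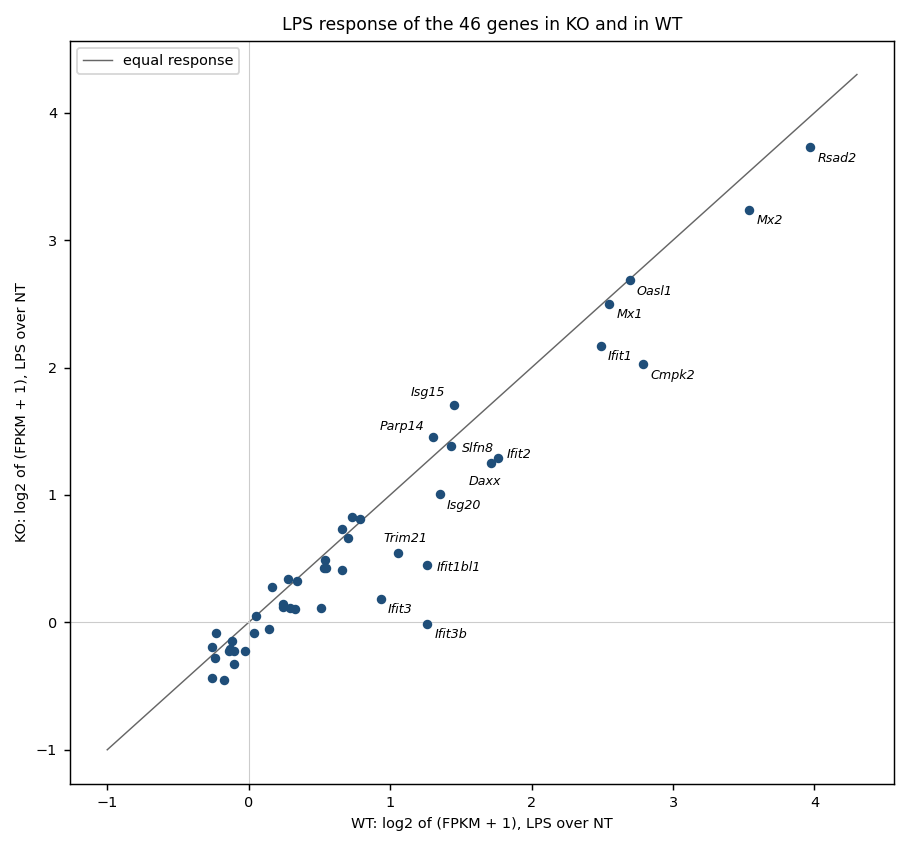
Log2 of (FPKM + 1), LPS over NT, for each of the 46 genes in KO (vertical) and in WT (horizontal), with a line for equal responses. Most points lie near the line, at or below it, and Ifit3b, Ifit1bl1, Cmpk2 and Ifit3 lie furthest below.

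The Ifit proteins bind viral RNA at its 5′ end or join complexes that do. Their genes stand together on chromosome 19 (GRCm38, Ifit2 at 34550550 to 34576534, Ifit3 at 34583119 to 34588982, Ifit3b at 34607530 to 34613403 and Ifit1 at 34640889 to 34650009). Ifit1, which recognises caps that lack ribose methylation, had 326 FPKM in KO LPS and 604 in WT LPS, and 71.5 in KO NT and 107 in WT NT. KO lay below WT in each state, at 0.539 times the count with LPS (interval 0.520 to 0.558) and 0.670 times without (0.619 to 0.724). Ifit2 had 298 FPKM in KO LPS and 689 in WT LPS, and 121 in KO NT and 202 in WT NT. The KO to WT ratio was 0.432 with LPS (0.419 to 0.445) and 0.599 without (0.571 to 0.628). For Ifit2 the 2 intervals did not overlap, so the shortfall in KO was larger with LPS beyond counting error.

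Ifit3, which stabilises Ifit1 in humans, had 241 FPKM in KO LPS and 557 in WT LPS, and 212 in KO NT and 291 in WT NT. As deposited, the level with LPS in WT was thus nearly 2 times that without (count ratio 1.92), while in KO the levels were close (1.14). With median-ratio scaling these ratios were 2.67 in WT and 1.53 in KO. Its near copy Ifit3b had 52.0 FPKM in KO LPS and 114 in WT LPS, and 52.5 in KO NT and 47.0 in WT NT. Only the WT LPS library stood out, and the KO to WT ratio was 0.456 with LPS (0.412 to 0.505) and 1.12 without (0.993 to 1.26). Ifit3 and Ifit3b both have fractional counts, so reads were divided with other genes, and which genes share them was not tested. Summed, they had 293 FPKM in KO LPS and 671 in WT LPS, and 264 in KO NT and 338 in WT NT. The sum was 0.436 times the WT level with LPS and 0.781 times without, and its LPS response was smaller in KO by 0.84 on the log2 scale.

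Ifit1bl1, a gene of the same cluster whose annotated span covers Ifit3b and Ifit1, was the member furthest below WT in both states. It had 8.66 FPKM in KO LPS and 36.4 in WT LPS, and 6.08 in KO NT and 14.6 in WT NT. These levels rest on 104, 458, 77.4 and 185 counts, fractional in each library. The ratios were 0.244 with LPS (0.196 to 0.303) and 0.417 without (0.315 to 0.547).

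The Oas genes on chromosome 5 encode sensors of double-stranded RNA that make the messenger which activates RNase L. Oas1a had 134 FPKM in KO LPS and 165 in WT LPS, and 142 in KO NT and 161 in WT NT. Oas2 had 41.1 FPKM in KO LPS and 55.5 in WT LPS, and 48.1 in KO NT and 56.5 in WT NT. Oas3 had 80.6 FPKM in KO LPS and 113 in WT LPS, and 98.1 in KO NT and 133 in WT NT. KO was below WT in each state for all 3, at ratios between 0.713 and 0.884, and the intervals of all these ratios lay below 1. None of them had a higher level with LPS by even 1.5-fold in either genotype. Oas1g stood at 46.1 FPKM in KO LPS and 57.3 in WT LPS, and at 42.3 in KO NT and 48.4 in WT NT. Oas1b, which in C57BL/6 mice carries a premature stop codon known for susceptibility to flaviviruses, was lower, at 10.4 FPKM in KO LPS and 15.1 in WT LPS, and 11.1 in KO NT and 17.8 in WT NT. Oas1a, Oas1b, Oas1g and Oas3 had fractional counts. Summed over Oas1a, Oas1b and Oas1g, KO stood at 0.802 times WT with LPS and 0.861 times without.

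The Oas-like pair, whose genes are neighbours on chromosome 5 (Oasl2 at 114896926 to 114912245, Oasl1 at 114923143 to 114937911), differed in their response. Oasl1, which restrains translation of Irf7 in mice, had 220.3 FPKM in KO LPS and 333 in WT LPS, and 33.4 in KO NT and 50.6 in WT NT. Oasl2 had 134 FPKM in KO LPS and 165 in WT LPS, and 139 in KO NT and 149 in WT NT. As deposited, the count of Oasl1 with LPS was 6.59 times that without in KO and 6.58 times in WT, and that of Oasl2 0.964 and 1.11 times. With median-ratio scaling these were 8.87 in KO and 9.16 in WT for Oasl1, and 1.30 and 1.54 for Oasl2. The KO to WT ratio of Oasl1 was the same in both states, 0.662 with LPS (0.629 to 0.696) and 0.660 without (0.581 to 0.750). For Oasl2 it was nearer to 1, at 0.813 (0.769 to 0.859) and 0.934 (0.884 to 0.987). Both genes had whole counts.

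Isg20, an exonuclease that degrades single-stranded RNA, had 26.2 FPKM in KO LPS and 67.2 in WT LPS, and 12.6 in KO NT and 25.8 in WT NT. As deposited, its level in KO with LPS was about that of untreated WT cells, a likeness that depends on the scaling between LPS and NT libraries. The KO to WT ratios were 0.376 with LPS (0.309 to 0.455) and 0.491 without (0.369 to 0.649). Znfx1, a helicase-like RNA sensor, stood at 111 FPKM in KO LPS and 133 in WT LPS, and at 127 in KO NT and 159 in WT NT. Ddx60, a helicase linked to RNA sensing, differed least from WT with LPS after Rtp4, with 7.16 FPKM in KO LPS and 7.56 in WT LPS, and 10.1 in KO NT and 9.25 in WT NT. Its intervals included 1 in both states. Taken as a group, the RNA-binding and RNA-cutting effectors had medians of -0.49 for KO over WT with LPS and -0.44 without. With LPS, 15 of 15 were below 0 (37.7% of all genes) and 5 at least 2-fold lower (1.12%). Those 5 were Ifit2, Ifit3, Ifit3b, Ifit1bl1 and Isg20, of which Ifit3, Ifit3b and Ifit1bl1 have fractional counts. Without LPS, 13 of 15 were below 0 (46.2% of all genes).

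Rsad2 encodes viperin, which makes a chain-terminating nucleotide from CTP, and Cmpk2, its neighbour on chromosome 12, encodes a mitochondrial nucleotide kinase. The genes lie 12664 bases apart (Rsad2 at 26442743 to 26456452, Cmpk2 at 26469117 to 26479837), and both had whole counts. Rsad2 had 694 FPKM in KO LPS and 1544 in WT LPS, and 51.4 in KO NT and 97.7 in WT NT. It had the highest LPS fold of all members, with a count 13.5 times that of NT in KO (12.7 to 14.4) and 15.8 times in WT (15.1 to 16.5). Cmpk2 had 193 FPKM in KO LPS and 526 in WT LPS, and 46.5 in KO NT and 75.4 in WT NT. Its count with LPS was 4.14 times that of NT in KO (3.84 to 4.47) and 6.98 times in WT (6.60 to 7.39). The KO to WT ratio of Cmpk2 was 0.366 with LPS (0.352 to 0.381) and 0.617 without (0.566 to 0.673). For Rsad2 it was 0.449 (0.440 to 0.458) and 0.526 (0.489 to 0.566).

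Bst2, or tetherin, holds budding virions at the cell surface. Its level was 379 FPKM in KO LPS and 558 in WT LPS, and 442 in KO NT and 616 in WT NT. Ifitm3 had 1102 FPKM in KO LPS and 1541 in WT LPS, and 1062 in KO NT and 1489 in WT NT. Neither gene had a higher level with LPS by 1.5-fold, yet KO was below WT by about the same factor with LPS and without: 0.679 (0.638 to 0.722) and 0.718 (0.679 to 0.760) for Bst2, and 0.715 (0.685 to 0.746) and 0.713 (0.684 to 0.744) for Ifitm3. The counts of Ifitm3 are fractional.

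Mx1 and Mx2 encode dynamin-like GTPases that block virus replication, and they lie side by side on chromosome 16. In C57BL/6 mice the Mx1 gene is known to carry a deletion that leaves no working protein, so its RNA is a readout of induction. Mx1 had 261 FPKM in KO LPS and 456 in WT LPS, and 45.4 in KO NT and 77.2 in WT NT. Mx2 had 120.0 FPKM in KO LPS and 189 in WT LPS, and 11.8 in KO NT and 15.4 in WT NT. Mx2 was second to Rsad2 by LPS fold, with counts 10.2 times those of NT in KO and 12.3 times in WT. The KO to WT ratio of Mx1 was 0.574 with LPS (0.551 to 0.597) and 0.583 without (0.531 to 0.640), the same within counting error.

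Isg15 is a ubiquitin-like protein that is joined to other proteins, Herc6 is its main mouse ligase, and Usp18 removes it and also dampens signalling at the interferon receptor. Isg15 had 464 FPKM in KO LPS and 655 in WT LPS, and 142 in KO NT and 239 in WT NT. Unlike most members it was nearer to WT with LPS, at a ratio of 0.708 (0.666 to 0.752), than without, at 0.593 (0.534 to 0.657). Those intervals did not overlap as deposited, but with median-ratio scaling they did (0.635 to 0.717 and 0.528 to 0.649). The counts of Isg15 are fractional. Usp18 had 84.4 FPKM in KO LPS and 117 in WT LPS, and 53.1 in KO NT and 71.6 in WT NT. The Herc6 levels were 23.4 FPKM in KO LPS and 31.2 in WT LPS, and 17.1 in KO NT and 21.1 in WT NT. Both lay below WT in each state, with ratios of 0.721 and 0.742 for Usp18 and of 0.751 and 0.815 for Herc6.

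Trim21, a cytosolic antibody receptor and ubiquitin ligase, had 39.3 FPKM in KO LPS and 53.8 in WT LPS, and 26.7 in KO NT and 25.4 in WT NT. Only with LPS did its interval exclude 1 (0.729, 0.654 to 0.811, against 1.05, 0.911 to 1.20, without LPS), and the intervals did not overlap. Trim30a, a mouse regulator of Toll-like receptor signalling, stood at 74.8 FPKM in KO LPS and 91.7 in WT LPS, and at 67.5 in KO NT and 77.3 in WT NT. Dtx3l, a ubiquitin ligase that pairs with Parp9, and the ADP-ribosyltransferase genes Parp9 and Parp14 lie next to each other on chromosome 16, where the annotated spans of Dtx3l and Parp9 overlap. Parp14 had 271 FPKM in KO LPS and 313 in WT LPS, and 98.2 in KO NT and 126 in WT NT. Its count with LPS was 2.75 times that of NT in KO and 2.48 times in WT. Dtx3l and Parp9 had smaller folds, at 1.68 and 1.35 times in KO and 1.59 and 1.46 times in WT. In this block KO was closer to WT than in the Ifit or Rsad2 blocks, with ratios with LPS of 0.864 for Parp14, 0.904 for Dtx3l and 0.881 for Parp9.

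Schlafen genes encode proteins that cut or sequester transfer RNA or restrain proliferation. Slfn5, Slfn8 and Slfn1 lie in that order on chromosome 11, with Slfn9 between Slfn5 and Slfn8 and Slfn2 between Slfn8 and Slfn1. Slfn5 had 239 FPKM in KO LPS and 301 in WT LPS, and 136 in KO NT and 174 in WT NT. Slfn8 had 115 FPKM in KO LPS and 142 in WT LPS, and 43.7 in KO NT and 51.9 in WT NT. Slfn1 had 31.2 FPKM in KO LPS and 51.2 in WT LPS, and 17.1 in KO NT and 30.5 in WT NT. Slfn1 lay furthest below WT of the 3, at ratios of 0.607 with LPS and 0.561 without, and all 3 had fractional counts. Samd9l, a growth and translation inhibitor, stood at 105 FPKM in KO LPS and 133 in WT LPS, and at 78.8 in KO NT and 83.7 in WT NT. For this group the median log2 fold of KO over WT was -0.33 with LPS and -0.30 without. In each state 4 of 4 were below 0, against 37.7% of all genes with LPS and 46.2% without.

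Daxx and Sp100 are components of nuclear bodies that silence incoming viral DNA. Daxx had 109.7 FPKM in KO LPS and 191 in WT LPS, and 45.5 in KO NT and 57.8 in WT NT. Its KO to WT ratio was 0.574 with LPS (0.539 to 0.612) and 0.789 without (0.712 to 0.874), and these intervals did not overlap. Sp100 stood at 90.1 FPKM in KO LPS and 109 in WT LPS, and at 106 in KO NT and 117 in WT NT. The neighbours Phf11b and Phf11d on chromosome 14 have fractional counts. Summed, they had 86.3 FPKM in KO LPS and 144 in WT LPS, and 79.6 in KO NT and 106 in WT NT. That is 0.60 times the WT level with LPS and 0.752 times without.

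The remaining 9 members act on signalling or have varied roles, and with the deposited scaling none was at least 1.5-fold apart from WT or from NT. With median-ratio scaling 4 of the 9 in KO and 5 of the 9 in WT were at least 1.5-fold higher with LPS, and 1 was at least 1.5-fold lower in KO LPS than in WT LPS. That scaling raises every member's fold of LPS over NT, and the all-gene shares at 1.5-fold under it are not given here. Lgals3bp, a secreted glycoprotein that binds galectins, was the highest, at 656 FPKM in KO LPS and 796 in WT LPS, and 760.1 in KO NT and 871 in WT NT. Rtp4, a negative regulator of interferon signalling in mice, differed least from WT with LPS, at 184 FPKM in KO LPS and 193 in WT LPS, and 147 in KO NT and 152 in WT NT. For Rtp4 and for Nmi, a partner of Ifi35, the intervals of KO over WT included 1 in both states. The intervals of Ifi44, Ifi35, Tor3a, Lgals9 and Lgals3bp lay below 1 in both states. Xaf1, a pro-apoptotic protein, also lay below 1 in both states, and Epsti1 with LPS alone. The group's median log2 fold of KO over WT was -0.28 with LPS (9 of 9 below 0, against 37.7% of all genes) and -0.23 without (8 of 9, against 46.2%).

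Upstream of these genes, 15 genes for interferons, their receptor and its signalling were examined. Ifnb1, the interferon beta gene, had 19.4 FPKM in KO LPS and 177 in WT LPS and was not listed in KO NT or WT NT. The count ratio of KO LPS to WT LPS was 0.110 (0.0856 to 0.139), further below 1 than that of any of the 46 genes. Ifna4, an interferon alpha gene, was listed in WT LPS alone, at 1.44 FPKM from 5 counts. The receptor genes did not share the shortfall: Ifnar1 had 53.4 FPKM in KO LPS and 43.9 in WT LPS, and 49.9 in KO NT and 50.04 in WT NT. Ifnar2 stood at 63.4 FPKM in KO LPS and 61.1 in WT LPS, and at 68.1 in KO NT and 67.9 in WT NT. The list was mixed, with 2 of 15 at least 2-fold lower in KO LPS than in WT LPS (1.12% of all genes), 10 below 0 (37.7%) and a median log2 fold of -0.20. Those 2 were Ifnb1 and Ifna4. Ifna4 passed the filter only through WT LPS, and its count-ratio interval (0 to 1.17) included 1. Without LPS 8 of 13 measured were below 0 (46.2% of all genes), and the median was -0.01. Stat2 and Irf7, themselves interferon-stimulated, were among those below WT in both states, with 44.3 FPKM in KO LPS and 62.5 in WT LPS and 66.2 in KO NT and 96.8 in WT NT for Stat2. Irf7 had 232 FPKM in KO LPS and 371 in WT LPS, and 287 in KO NT and 407 in WT NT. Stat2 and Irf7 were picked after their values were seen. Whether the levels of Ifnb1 or of the receptor genes bear on those of the 46 genes was not tested.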

How the data were processed

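Expression was measured by RNA sequencing in 4 libraries, 1 per group, grouped by their titles. The submitters' processing notes name Bowtie, RSEM and mm10, and versions, annotation, strand and filters are not stated there. The deposited expected counts are RSEM estimates, in which reads that match several genes are divided among them. The deposited FPKM is the authors' value per kilobase, scaled to depth. A gene missing from a table was set to 0. The libraries held 5237782 to 5678451 expected counts, and the lowest member count, 77, sets the widest counting intervals. Of the 46 members, 22 had fractional counts (outside 0.005 of a whole number), which show reads shared with other genes.

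Of 15935 identifiers, 15897 had an entry in the RefSeq gene table (GRCm38.p6, which is mm10). Folds are log2 of (FPKM + 1) over (FPKM + 1), and all-gene values use genes of at least 1 FPKM in a compared library. Ratios of single genes are count ratios at equal totals with exact 95% Clopper-Pearson intervals of rounded counts (scipy 1.17.1), which cover counting error only, since PCR copies are not independent molecules. The intervals were tested on simulated counts that held counting error only. That checked the calculation and not how well the intervals suit these data. No test was run, with 1 library per group. Full values were planned for 18 members and for the 5 highest and lowest folds per comparison, and others were added to cover each role. The comparison with genes of at least 77 counts in all libraries was added after the data were seen. The members and lists were chosen with earlier results of these data known. Promoters come from RefSeq (GRCm38.p6). Proteins were not used here. Alternatives were other pseudocounts, filters, scalings, members and summed copies.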

Additional observations from a re-analysis of the deposited data

How the results depend on the processing

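No paired analysis was possible because each group has 1 library, and for the same reason no library could be left out. Medians of KO over WT kept their sign under all alternatives tried, between -0.52 and -0.40 with LPS and between -0.35 and -0.27 without, as did those of LPS over NT and of the difference in response (-0.19 to -0.06). Median-ratio scaling centres the median gene by construction. It moved the LPS medians to 1.0 in WT and 0.75 in KO, and the members at least 2-fold higher to 23 in WT (9.62% of all genes). Those at least 1.5-fold higher became 33 in WT and 26 in KO. With totals rescaled the same way, intervals below 1 for LPS over NT numbered 0 in WT and 0 in KO, and those above 1 in KO 42. This scaling raises every member's fold of LPS over NT. The all-gene shares at 1.5-fold and for these intervals are not given here, so these counts describe the scaling. Taking the 24 members of whole counts, fewer by construction, left 4 at least 2-fold and 6 at least 1.5-fold lower in KO LPS than in WT LPS, 0 and 5 in KO NT than in WT NT, 8 and 10 higher with LPS in WT, 7 and 8 in KO, and 0 and 1 with a smaller response in KO. With close copies summed (37 units), 9 were at least 1.5-fold lower in KO with LPS, 0 at least 2-fold and 7 at least 1.5-fold lower without, and 0 and 2 had a smaller response in KO. The member at least 2-fold lower in KO NT became 2 with a pseudocount of 0.1 FPKM and 0 with 5 FPKM. Of 1840 single folds under alternatives, 110 changed by more than the distance from the middle to the end of their counting interval. The other 1730 did not. For the difference in response, which has no interval of its own, the widths of 2 intervals were combined. Filters and the floor of 3 counts could change nothing, since all members were listed everywhere above the filters. All folds under those settings are therefore among the 1730 by construction. Depth limits Ifit1bl1 and Isg20 most, at under 100 counts in KO NT.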

Other observations

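Interferon-stimulated genes outside the 46 were examined as a list of 47, of which 46 were measured and Rnf213 was not analysed here. Of these, 43 were below 0 in KO LPS against WT LPS (37.7% of all genes), with a median log2 fold of -0.43, and 40 in KO NT against WT NT (46.2% of all genes), with a median of -0.24. Only Iigp1, an immunity-related GTPase, was at least 2-fold lower in KO with LPS (1 of 46, against 1.12% of all genes), at 19.2 FPKM in KO LPS and 39.55 in WT LPS. Ddx58, which encodes the RNA sensor RIG-I, had 46.6 FPKM in KO LPS and 65.7 in WT LPS, and the sensor gene Ifih1 had 132 in KO LPS and 157 in WT LPS. The regulator Dhx58 had 66.9 FPKM in KO LPS and 90.0 in WT LPS, and the nucleic acid sensor Zbp1 85.2 in KO LPS and 136 in WT LPS.

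Ifitm2, a close relative of Ifitm3, was higher in KO in both states: 413 FPKM in KO LPS and 305 in WT LPS, and 295 in KO NT and 229.6 in WT NT. It was picked after its values were seen, and whether the family's genes share reads was not tested.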
